A study of Homo sapiens with 12 samples.

Results

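The MAPK cascade genes examined here are 42 of the 38434 named genes counted in both tables. They were chosen by gene symbol in 3 classes, 14 RAS and MAPK cascade kinases (with the RAS GTPases HRAS and NRAS), 13 immediate early genes and 15 feedback inhibitors. RNA-seq counts were available for LK-2 and RERF-LC-AI, both human lung squamous cell carcinoma (LUSC) cell lines with suppressed endogenous maspin, in 4 groups of 3 libraries. By the paper's account, RERF-LC-AI carries a driver mutation of EGFR, whereas LK-2 has wild-type EGFR. LK2-maspin and LC-AI-maspin cells stably carried maspin joined by a P2A peptide to the green fluorescent protein ZsGreen, whereas LK2-ctrl and LC-AI-ctrl cells carried ZsGreen alone. All groups were made with a lentiviral vector and are pools of blasticidin-resistant clones, LK-2 cells being grown in RPMI1640 and RERF-LC-AI cells in Eagle's minimum essential medium. The question was which genes of this pathway changed with maspin re-expression in each line. Separate cultures are not given for the 3 libraries of a group, so that p-values measure the spread between libraries of 1 pool.

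RAS proteins pass signals from growth factor receptors to the RAF kinases, which phosphorylate MEK, which phosphorylates ERK. ERK acts on RSK kinases and on transcription factors, and the immediate early genes, many of them parts of the AP-1 factor, are switched on within minutes. Dual-specificity phosphatases, Sprouty and SPRED proteins and neurofibromin then switch the cascade off again, and several of them are themselves transcribed in response to ERK. The phosphorylation steps and the switching off are changes of protein activity, which counts of mRNA do not measure. For the genes transcribed in response, the counts measure the mRNA level.

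Summed over named genes, an LK-2 library held 39802246 to 54941357 counts, and a RERF-LC-AI library 50143577 to 65454432. SERPINB5 (gene ID 5268), which encodes maspin, was at 48.4 to 50.9 CPM (counts scaled to a common library total with TMM factors) in LK2-maspin and 1.87 to 2.02 CPM in LK2-ctrl libraries. It was at 437 to 513 CPM in LC-AI-maspin and 0.143 to 0.270 CPM in LC-AI-ctrl libraries, so that all 12 libraries matched their labels. Of 21 epithelial markers, squamous ones among them, the summed level was 1899 to 2033 CPM in LK2-maspin and 2026 to 2216 CPM in LK2-ctrl libraries. Most of it came from PERP, EPCAM and SOX2, so that the sum is not a measure of squamous character. The basal keratin KRT5 went against this sum, at 5.62, 7.62 and 9.07 CPM in LK2-maspin and 1.01, 0.664 and 0.666 CPM in LK2-ctrl libraries, and was called higher (adjusted p = 4.65e-05). KRT6A, KRT6B and KRT13 were above every ctrl library in all 3 LK2-maspin libraries but did not pass (adjusted p 0.138, 0.146 and 0.440). The sum of the 21 markers was 122 to 129 CPM in both LC-AI-maspin and LC-AI-ctrl libraries. There TP63, SOX2 and KRT5 were all under 1 CPM on average. Of the 21 markers, 8 averaged 1 CPM or more in LC-AI-ctrl and 8 in LK2-ctrl libraries. S100A2 averaged 12.3 CPM in LC-AI-ctrl and 0.756 CPM in LK2-ctrl, PKP1 8.34 and 0.342 CPM, and KRT15 2.41 and 0.491 CPM. PERP averaged 89.0 CPM in LC-AI-ctrl and 799 CPM in LK2-ctrl libraries. In LK-2 cells SOX2 averaged 428 CPM in LK2-maspin and 537 CPM in LK2-ctrl libraries, but TP63 was only 1.14 and 1.27 CPM. The neuroendocrine marker INSM1 averaged 26.1 and 31.2 CPM there, most of a neuroendocrine sum of 28.9 to 31.6 and 34.2 to 37.8 CPM. The adenocarcinoma marker NKX2-1 averaged 4.95 and 6.46 CPM. In RERF-LC-AI cells INSM1 and NKX2-1 were under 1 CPM on average. The 10 mesenchymal markers summed to 1736 to 1894 CPM in LC-AI-maspin and 1842 to 2026 CPM in LC-AI-ctrl libraries, with COL1A2 and PDGFRB called lower. VIM made most of that sum, averaging 1550 and 1660 CPM, but was under 1 CPM on average in LK-2 cells. In LK-2 cells the mesenchymal sum was 326 to 408 CPM in LK2-maspin and 365 to 433 CPM in LK2-ctrl libraries. Most of it was CDH2, averaging 332 and 368 CPM, which was under 1 CPM on average in RERF-LC-AI cells. Of the 10 markers, 5 averaged 1 CPM or more in each LK-2 group and 7 in each RERF-LC-AI group. Blood and endothelial markers summed to 8.76 to 9.18 CPM in LK2-maspin, 8.29 to 11.8 CPM in LK2-ctrl, 42.8 to 47.6 CPM in LC-AI-maspin and 45.8 to 47.2 CPM in LC-AI-ctrl libraries, where CD68 alone averaged 41.3 CPM in LC-AI-maspin and 43.7 CPM in LC-AI-ctrl. The part of these markers in the results was not tested.

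Promoters are shown for 5 members whose mRNA changed in RERF-LC-AI cells, because their letters hold sites that MAPK-regulated factors are known to bind. Each run covers 250 bases before to 50 bases after the start site, 5′ to 3′ on the gene's strand, from RefSeq (GRCh38.p14). Capitals mark matches, on either strand, to the AP-1 letters TGANTCA, the CRE-like letters TGANNTCA, the ETS letters CGGAAG and the EGR letters GCGNGGGCG.
FOSL2, chromosome 2, chr2:28392608-28392907, plus strand: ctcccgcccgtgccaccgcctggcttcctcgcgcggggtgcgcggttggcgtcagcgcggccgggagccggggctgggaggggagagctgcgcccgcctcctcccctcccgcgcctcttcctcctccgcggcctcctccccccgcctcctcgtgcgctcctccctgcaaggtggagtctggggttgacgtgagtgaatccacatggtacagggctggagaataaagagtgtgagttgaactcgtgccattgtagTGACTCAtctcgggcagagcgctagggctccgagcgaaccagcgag
JUN, chromosome 1, chr1:58783998-58784297, minus strand: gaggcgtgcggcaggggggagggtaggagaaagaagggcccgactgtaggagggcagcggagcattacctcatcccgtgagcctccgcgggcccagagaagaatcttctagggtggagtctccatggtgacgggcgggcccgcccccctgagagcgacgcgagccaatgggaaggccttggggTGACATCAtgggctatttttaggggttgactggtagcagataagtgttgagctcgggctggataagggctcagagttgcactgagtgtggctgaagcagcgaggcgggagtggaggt
DUSP8, chromosome 11, chr11:1572222-1572521, minus strand: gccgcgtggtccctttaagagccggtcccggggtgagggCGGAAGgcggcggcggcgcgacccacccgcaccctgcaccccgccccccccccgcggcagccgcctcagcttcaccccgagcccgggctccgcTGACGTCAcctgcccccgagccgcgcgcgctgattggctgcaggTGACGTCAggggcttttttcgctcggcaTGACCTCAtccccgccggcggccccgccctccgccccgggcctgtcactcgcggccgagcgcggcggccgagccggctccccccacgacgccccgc
SPRED2, chromosome 2, chr2:65432550-65432849, minus strand: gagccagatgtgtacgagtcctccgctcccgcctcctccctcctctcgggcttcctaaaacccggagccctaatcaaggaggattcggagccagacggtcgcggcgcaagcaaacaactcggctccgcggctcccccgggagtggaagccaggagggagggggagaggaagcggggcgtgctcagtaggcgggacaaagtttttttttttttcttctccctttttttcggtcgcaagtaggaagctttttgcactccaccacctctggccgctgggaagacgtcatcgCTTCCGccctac
RPS6KA1, chromosome 1, chr1:26529511-26529810, plus strand: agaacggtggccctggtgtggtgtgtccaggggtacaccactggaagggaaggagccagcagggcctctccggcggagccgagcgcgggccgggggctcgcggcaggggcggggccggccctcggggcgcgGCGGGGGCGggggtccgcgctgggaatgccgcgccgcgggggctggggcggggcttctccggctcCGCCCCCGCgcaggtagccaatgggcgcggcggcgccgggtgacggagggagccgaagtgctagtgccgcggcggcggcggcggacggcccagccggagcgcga
FOSL2 has AP-1 letters that begin 4 bases after the start site, and JUN has CRE-like letters that begin 67 bases before it. DUSP8 holds 3 CRE-like matches and 1 ETS match, SPRED2 holds 1 ETS match, on the opposite strand, and RPS6KA1 holds 2 EGR matches. A promoter was found for 36 of the 42 members, and where RefSeq gave several, the one nearest to the start of the GENCODE canonical transcript was read. TGANTCA was in 2.78% of the members' promoters, against 7.71% of all 35116 promoters of the same length. Those 35116 count every entry, whereas 1 was read per member, and base composition was not matched, so that no enrichment can be read from these shares. TGANNTCA was in 19.4% against 11.5%, CGGAAG in 25.0% against 19.5%, and GCGNGGGCG in 30.6% against 9.43%. The CArG box, bound by SRF, was in 5.56% against 1.29%, and both members with it, EGR1 and EGR2, are immediate early genes. The called members MAP2K1, RPS6KA2, RPS6KA6 and SPRED1 had no match to any of these letters. Members not called by the quasi-likelihood test held them too, such as MAPK8 with 3 EGR matches and JUND with 2 CRE-like matches. These matches are descriptions of the letters and do not show binding, and a link to the changes in mRNA was not tested.

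In LK-2 cells, 1 of these mRNAs passed the test with maspin re-expression. SPRED1, a membrane-bound inhibitor that recruits neurofibromin to RAS, was the 1 member called lower, and 0 of the 41 tested were called higher. Over all 26270 genes tested, 0.373% were called higher and 0.16% lower. At an unadjusted p under 0.05, 3 members were higher and 4 lower. The edgeR likelihood ratio test and DESeq2 also called 0 higher and 1 lower. With the replicate number as a block, 2 were called higher (FOSL2 and NF1) and 3 lower (DUSP16, DUSP4 and SPRED1). The median log2 fold change of the members was -0.00050, and that of all genes -0.0010.

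SPRED1 (gene ID 161742) was at 92.1, 85.6 and 91.3 CPM in LK2-maspin and 113, 113 and 110 CPM in LK2-ctrl libraries. All 3 maspin libraries lay below all 3 ctrl libraries, and SPRED1 fell by 0.32 (SE 0.059) on the log2 scale, with an adjusted p of 0.0388 by the quasi-likelihood test. The call was lost without LK2-maspin replicate 1, 2 or 3 (adjusted p 0.0736, 0.439 and 0.140) and without LK2-ctrl replicate 1 or 2 (0.129 and 0.290), and with RLE factors (0.0521). In RERF-LC-AI cells SPRED1 averaged 53.3 ± 0.50 CPM in LC-AI-maspin and 53.3 ± 2.14 CPM in LC-AI-ctrl libraries (SD, n = 3 each).

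FOSL2, an AP-1 subunit of the FOS family, had the most positive value among the members in LK-2 cells but did not pass the quasi-likelihood test within the line. It was at 49.0, 69.2 and 90.0 CPM in LK2-maspin and 33.4, 36.1 and 56.6 CPM in LK2-ctrl libraries. The groups overlapped, since ctrl replicate 3 lay above maspin replicate 1, and the value was 0.72 on the log2 scale (SE 0.22, adjusted p = 0.358). It did pass without LK2-ctrl replicate 3 (0.997, adjusted p = 0.0207) and with all 12 libraries in 1 fit (adjusted p = 0.0396). FOSL2 also passed the quasi-likelihood test with the replicate number as a block (0.72, adjusted p = 5.67e-19). FOS had the most negative value, -0.79 (SE 0.32, adjusted p = 0.686), at levels under 1 CPM. DUSP16 and DUSP4, phosphatases of JNK/p38 and of ERK, had values of -0.28 (SE 0.079, adjusted p = 0.293) and -0.23 (SE 0.073, adjusted p = 0.421). The 14 cascade kinases ran from -0.30 to 0.15, with 0 called by the quasi-likelihood test, the likelihood ratio test or DESeq2 and 0 at an unadjusted p under 0.05.

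**Figure D1:**
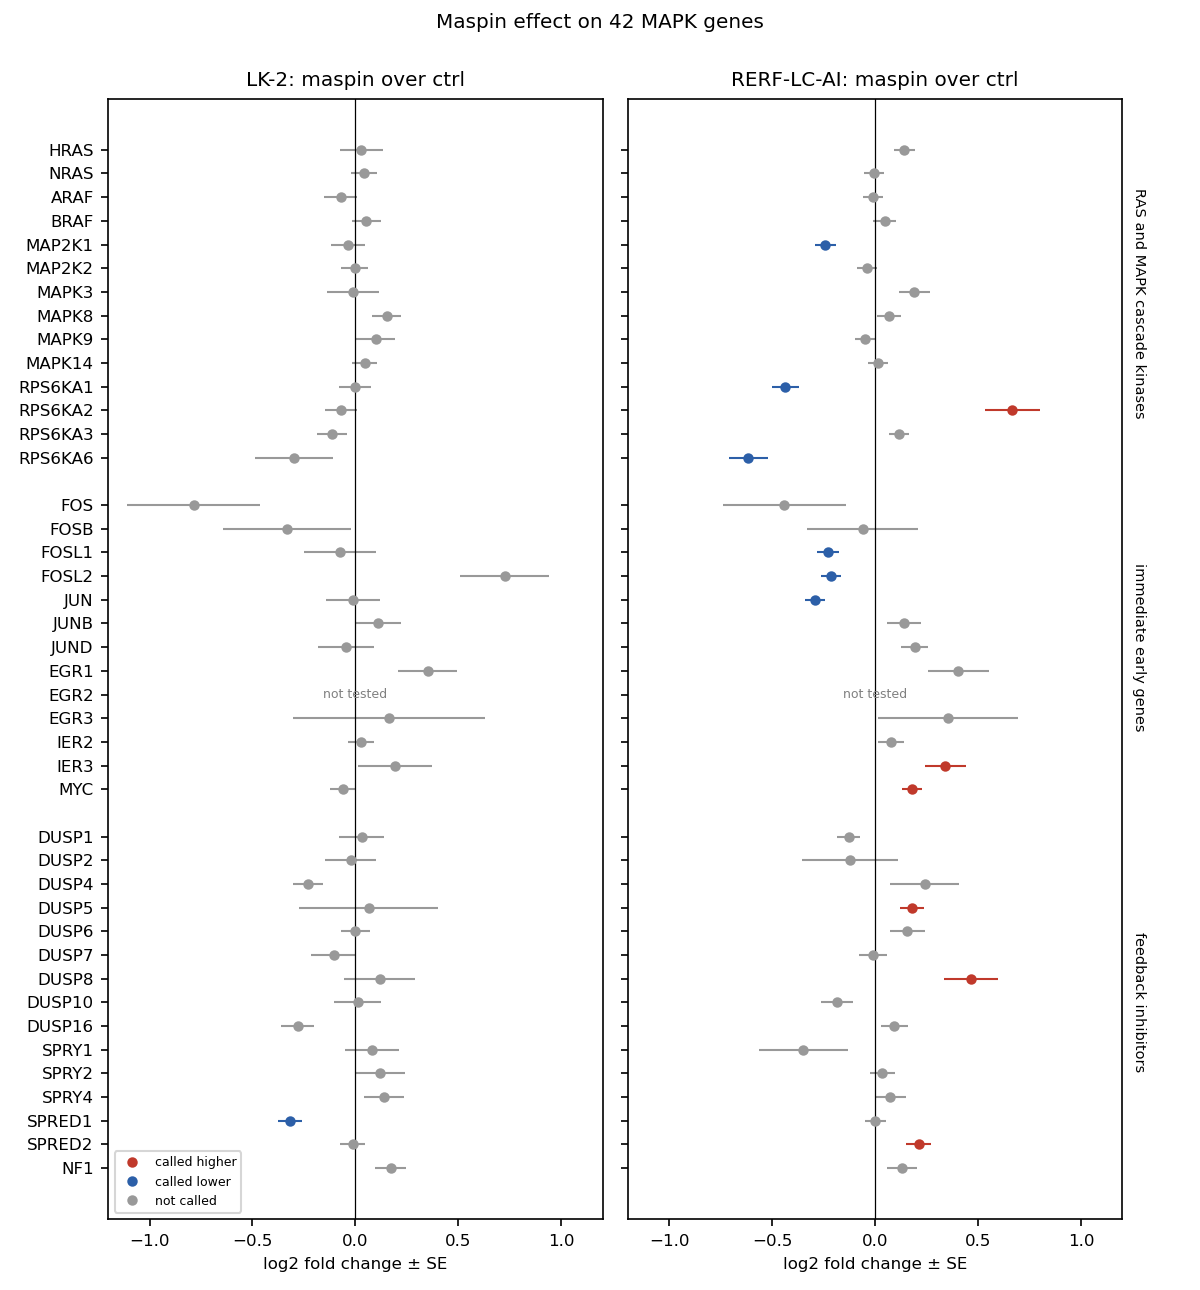
Log2 fold change (maspin over ctrl, ± SE, 3 against 3 libraries) of the 42 members in LK-2 (left) and RERF-LC-AI cells (right), by class. SPRED1 is the 1 call in LK-2, whereas 6 members were called higher and 6 lower in RERF-LC-AI, and EGR2 was not tested.

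In RERF-LC-AI cells, 12 of the 41 members tested were called, 6 higher and 6 lower, all by less than 2-fold. Over all 25197 genes tested, 4.01% were called higher and 6.53% lower. Because the members were chosen with earlier results of these data known, no enrichment can be read from these shares. Of the kinases 1 was higher and 3 were lower of 14, of the immediate early genes 2 were higher and 3 lower of the 12 tested, and of the feedback inhibitors 3 were higher and 0 lower of 15. At an unadjusted p under 0.05, 2 feedback inhibitors were lower, and the likelihood ratio test and DESeq2 also called 0 lower. The medians of the kinases, immediate early genes and feedback inhibitors were 0.01, 0.11 and 0.07 on the log2 scale, against 0.01 for all genes. EGR2, a zinc-finger factor, was left out of the tests by the filter on low counts, at 0.0625 to 0.116 CPM in LC-AI-maspin and 0.0401 to 0.179 CPM in LC-AI-ctrl libraries. When all 12 libraries were fitted together, 1 member stayed called higher (RPS6KA2) and 2 lower (RPS6KA1 and RPS6KA6).

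The ribosomal S6 kinases (RSKs), which ERK activates, moved in different directions. RPS6KA1 (gene ID 6195), which encodes RSK1, was at 21.2, 20.2 and 19.7 CPM in LC-AI-maspin and 26.7, 28.0 and 27.7 CPM in LC-AI-ctrl libraries. It fell by 0.44 (SE 0.065, adjusted p = 2.16e-05) on the log2 scale, with no overlap between the groups. RPS6KA6 (gene ID 27330), which encodes RSK4, was at 9.35, 8.92 and 7.54 CPM in LC-AI-maspin and 14.1, 12.7 and 12.6 CPM in LC-AI-ctrl libraries. It fell by 0.62 (SE 0.095, adjusted p = 3.45e-05), again with all maspin libraries below all ctrl libraries. RPS6KA1 and RPS6KA6 were the 2 of the 12 calls that were kept in all 15 alternatives run.

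RPS6KA2 (gene ID 6196), which encodes RSK3, moved the other way. It was at 16.0, 11.6 and 10.7 CPM in LC-AI-maspin and 10.2, 6.82 and 7.09 CPM in LC-AI-ctrl libraries, which is 0.67 higher (SE 0.13, adjusted p = 7.73e-04) on the log2 scale. The groups did not overlap, but replicate 1 was the highest library of both groups, and DESeq2 did not call the gene (adjusted p = 0.0566). RPS6KA3, which encodes RSK2, was 0.12 (SE 0.049, adjusted p = 0.150) on that scale and was not called. MAP2K1 (gene ID 5604), the ERK kinase MEK1, was at 62.0, 61.0 and 59.7 CPM in LC-AI-maspin and 68.4, 74.7 and 73.0 CPM in LC-AI-ctrl libraries. Its groups did not overlap, and it fell by 0.24 (SE 0.051, adjusted p = 0.00134). MAP2K2, which encodes MEK2, was at 140 ± 4.94 CPM in LC-AI-maspin and 143 ± 7.11 CPM in LC-AI-ctrl libraries (SD, n = 3 each) and was not called. HRAS, NRAS, ARAF, BRAF, MAPK3 (ERK1), the JNK genes MAPK8 and MAPK9 and the p38 gene MAPK14 were not called by the quasi-likelihood test either, with values from -0.05 for MAPK9 to 0.19 for MAPK3. HRAS, at 0.14 (adjusted p = 0.0793), and RPS6KA3 were called higher when libraries were scaled by their totals alone or by upper quartiles. Reads of ARAF, BRAF, HRAS, MAP2K1 and NF1 may be shared with pseudogene copies, and the sources used here do not say how the authors treated such reads.

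Among the immediate early genes, 3 that encode AP-1 subunits were lower. JUN (gene ID 3725), the partner that FOS proteins bind, was at 167, 152 and 150 CPM in LC-AI-maspin and 193, 186 and 193 CPM in LC-AI-ctrl libraries. It fell by 0.29 (SE 0.049, adjusted p = 1.03e-04), and the groups did not overlap. FOSL2 (gene ID 2355) was at 73.2, 78.1 and 74.9 CPM in LC-AI-maspin and 88.4, 88.9 and 85.4 CPM in LC-AI-ctrl libraries, where it fell by 0.22 (SE 0.048, adjusted p = 0.00266). FOSL1 (gene ID 8061), which encodes FRA1, was at 408, 444 and 391.6 CPM in LC-AI-maspin and 459, 528 and 469 CPM in LC-AI-ctrl libraries. Both genes were lower in every maspin library than in any ctrl library. FOSL1 fell by 0.23 (SE 0.054, adjusted p = 0.00425), a call that was lost without LC-AI-maspin replicate 3 (adjusted p = 0.0785) or LC-AI-ctrl replicate 2 (0.0519). FOS and FOSB were at or under 1.24 CPM in all RERF-LC-AI libraries and were not called. JUNB was not called either, and JUND, at 0.19 (SE 0.066, adjusted p = 0.0616), missed the threshold of the quasi-likelihood test. JUND was called higher by the likelihood ratio test, with upper-quartile factors and without a filter, which is the opposite direction to JUN, FOSL1 and FOSL2.

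IER3 and MYC were the immediate early genes that were higher. MYC (gene ID 4609), a growth-promoting transcription factor, was at 196, 212 and 193 CPM in LC-AI-maspin and 175, 185 and 171 CPM in LC-AI-ctrl libraries. Its groups did not overlap, and it was 0.18 higher (SE 0.049, adjusted p = 0.0152). Without LC-AI-maspin replicate 2 or LC-AI-ctrl replicate 3 the MYC call was lost (adjusted p 0.0896 and 0.143). IER3 (gene ID 8870), a stress-induced survival gene, was at 26.4, 19.4 and 21.4 CPM in LC-AI-maspin and 20.9, 15.04 and 16.97 CPM in LC-AI-ctrl libraries. Its groups overlapped, with replicate 1 the highest of each, and IER3 was 0.34 higher (SE 0.099, adjusted p = 0.0225). The IER3 call was lost with DESeq2 (adjusted p = 0.225) and without LC-AI-maspin replicate 1 (0.250, log2 fold change 0.21) or LC-AI-ctrl replicate 2 (0.133) or 3 (0.103). EGR1, a zinc-finger factor, did not pass, at 0.40 (SE 0.15, adjusted p = 0.0872), and was called higher without a filter.

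The called feedback inhibitors, DUSP5, DUSP8 and SPRED2, were all higher. DUSP5 (gene ID 1847), a nuclear ERK phosphatase, was at 96.6, 87.7 and 83.9 CPM in LC-AI-maspin and 84.3, 80.1 and 72.0 CPM in LC-AI-ctrl libraries. These groups overlapped by 1 library each, and DUSP5 was 0.18 higher (SE 0.058, adjusted p = 0.0420) on the log2 scale. The DUSP5 call was lost with RLE factors (adjusted p = 0.0541) and without LC-AI-maspin replicate 1 (0.272, log2 fold change 0.12) or 2 (0.0781), or LC-AI-ctrl replicate 3 (0.347, log2 fold change 0.12). DUSP8 (gene ID 1850), a phosphatase of JNK and p38, was at 7.36, 7.83 and 7.49 CPM in LC-AI-maspin and 6.80, 4.11 and 5.53 CPM in LC-AI-ctrl libraries. The maspin libraries were close together and above all ctrl libraries, DUSP8 being 0.47 higher (SE 0.13, adjusted p = 0.0177). Without LC-AI-maspin replicate 2 or 3 or LC-AI-ctrl replicate 2 or 3 the DUSP8 call was lost (adjusted p 0.0913, 0.0536, 0.151 and 0.0530), and without LC-AI-ctrl replicate 2 its log2 fold change was 0.29.

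SPRED2 (gene ID 200734), the relative of SPRED1, was at 51.8, 47.9 and 48.2 CPM in LC-AI-maspin and 46.3, 40.9 and 40.4 CPM in LC-AI-ctrl libraries. The groups did not overlap, and SPRED2 was 0.21 higher (SE 0.059, adjusted p = 0.0165). The SPRED2 call was lost without LC-AI-maspin replicate 1 (adjusted p = 0.100) or LC-AI-ctrl replicate 2 (0.0655) or 3 (0.146). The other 12 feedback inhibitors were not called, with log2 fold changes from -0.35 for SPRY1 to 0.24 for DUSP4. DUSP6, the cytoplasmic ERK phosphatase that is a usual readout of ERK activity, was at 0.16 (SE 0.087, adjusted p = 0.316), and SPRY2 and SPRY4, which block RAS activation, were at 0.04 and 0.07.

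**Figure D2:**
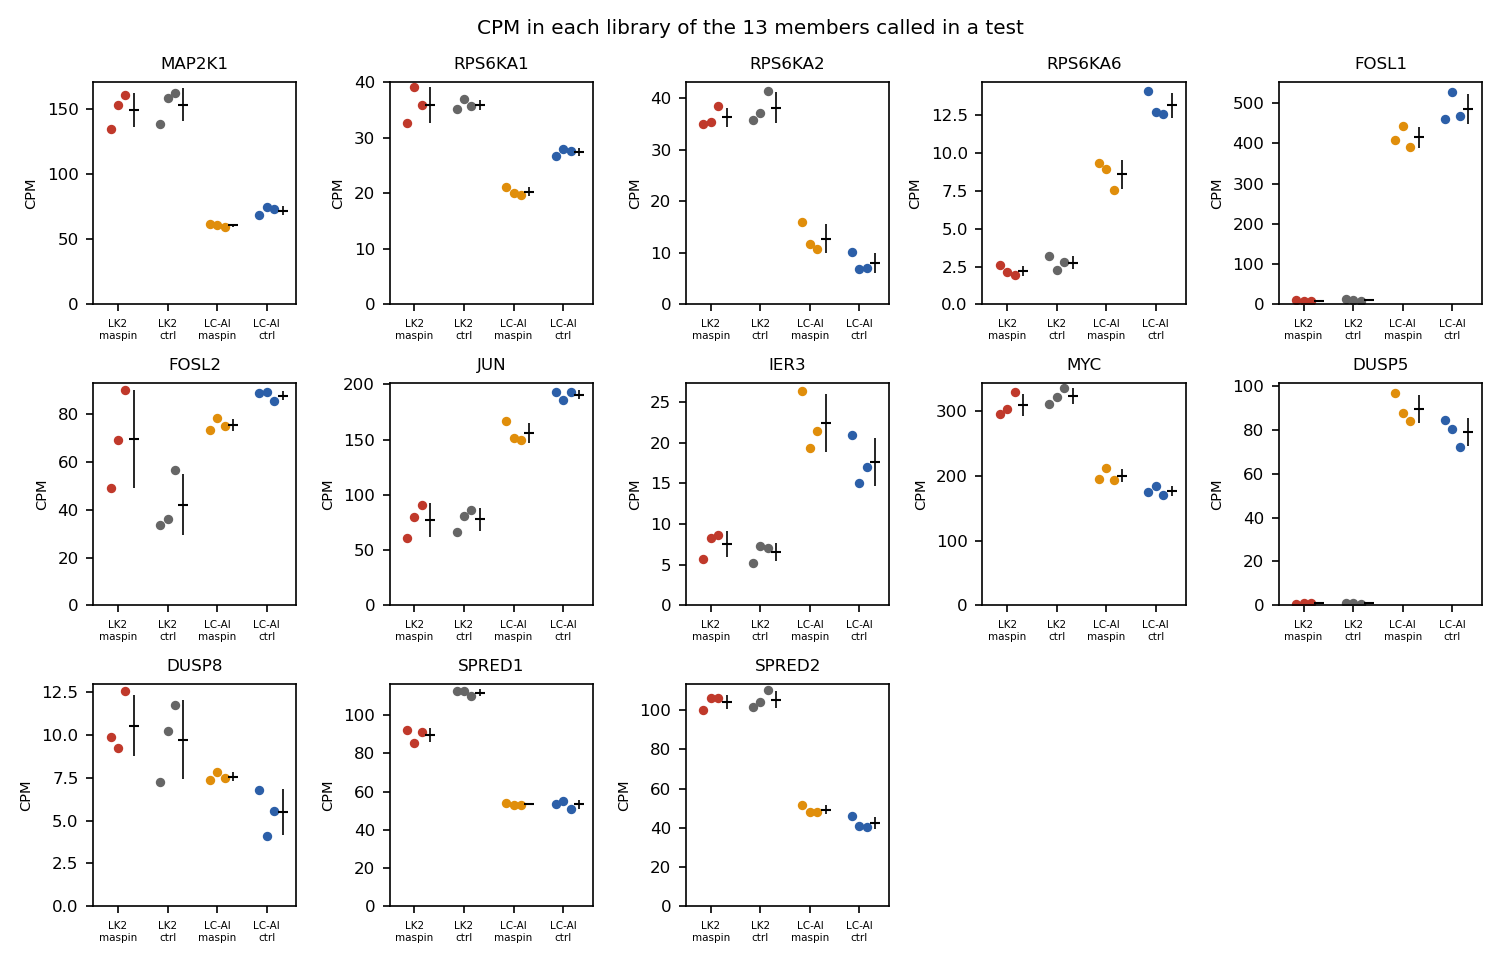
CPM of each library (points) with the mean ± SD of its group (black bars, n = 3) for the 13 members called in at least 1 test. The groups are LK2-maspin, LK2-ctrl, LC-AI-maspin and LC-AI-ctrl, and for RPS6KA1, RPS6KA6 and JUN the LC-AI-maspin points all lie under the LC-AI-ctrl points.

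An interaction term in 1 fit of all 12 libraries asked whether the effect, meaning maspin over ctrl libraries, differed between the 2 lines. SERPINB5 was at 48.4 to 50.9 CPM in LK2-maspin and 437 to 513 CPM in LC-AI-maspin libraries. The paper found the re-expressed protein in nucleus and cytoplasm of LK-2 cells, but in RERF-LC-AI cells in the cytoplasm alone. Maspin level, its location, EGFR genotype as given in the paper, medium and pool all differed with the line. Their parts in the difference were not tested. Of the 41 members tested, 2 passed, FOSL2 and RPS6KA1, against 1.76% of all 28123 genes. For FOSL2 the effect in LK-2 minus that in RERF-LC-AI cells was 0.94 (SE 0.23, adjusted p = 0.0410), the LK-2 value being positive but not called and the RERF-LC-AI value negative and called. For RPS6KA1 the difference was 0.43 (SE 0.10, adjusted p = 0.0405), with mean levels of 35.9 CPM in LK2-maspin and 36.0 CPM in LK2-ctrl libraries. SPRED1, at -0.32 (SE 0.082, adjusted p = 0.0526), and RPS6KA2, at -0.74 (SE 0.19, adjusted p = 0.0574), did not pass this quasi-likelihood test. Both passed with the likelihood ratio test (adjusted p 0.0222 for SPRED1 and 0.0119 for RPS6KA2) and with DESeq2 (0.0436 for SPRED1 and 0.0111 for RPS6KA2). The other 9 called members (MAP2K1, RPS6KA6, FOSL1, JUN, IER3, MYC, DUSP5, DUSP8 and SPRED2) were not shown to differ between the lines by the quasi-likelihood test. FOSL2 missed the threshold with DESeq2 (0.99, adjusted p = 0.0558), upper-quartile factors (0.0648) and library size only (0.0738). It also missed it when any 1 of 10 libraries was left out, its adjusted p being 0.0678 to 0.129 and its difference 0.73 to 1.01. The call was kept without LK2-maspin replicate 1 and without LK2-ctrl replicate 3. RPS6KA1 missed it without LK2-maspin replicate 2 (adjusted p = 0.0982), LK2-ctrl replicate 1 or 2 (0.0646 and 0.0643), LC-AI-maspin replicate 3 (0.131) or LC-AI-ctrl replicate 2 or 3 (0.103 and 0.110).

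**Figure D3:**
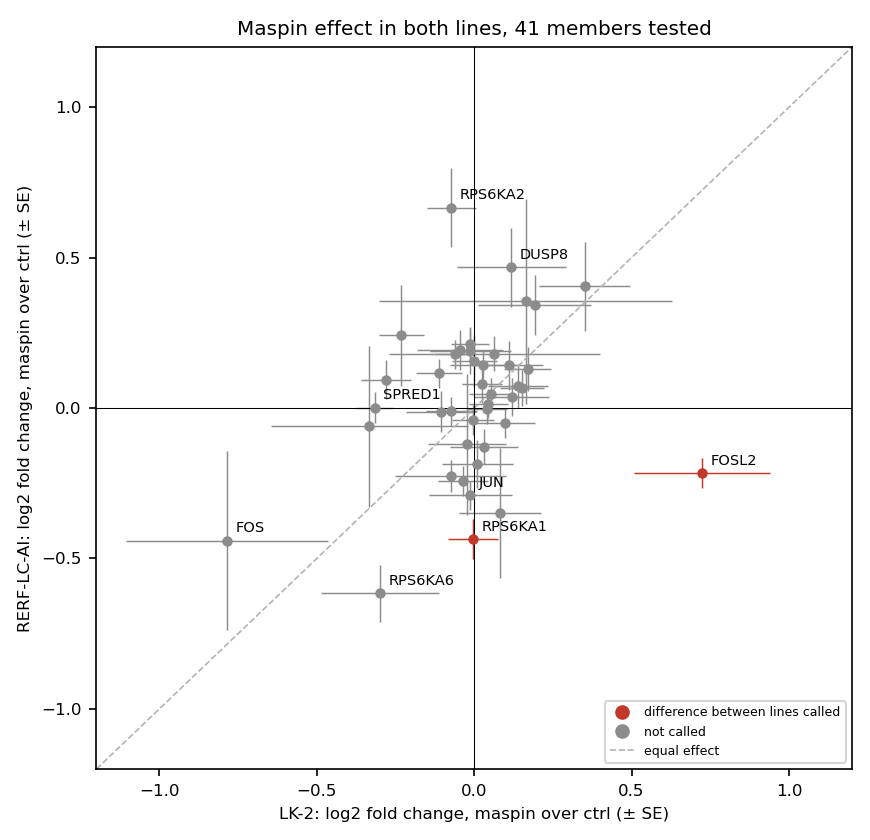
Log2 fold change (maspin over ctrl, ± SE) in LK-2 on the x axis and RERF-LC-AI on the y axis for the 41 members tested. FOSL2 (0.72 and -0.22) and RPS6KA1 (-0.0033 and -0.44), in red, are the members whose difference between the lines passed the test.

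Of the members, 18 were higher in all 3 LK2-ctrl than in all 3 LC-AI-ctrl libraries, 18 were lower and 6 overlapped. These levels are given without a test, since each line is 1 pool with its own medium and table, so that line and batch cannot be told apart. CPM were scaled within each line and not across lines. The same counts and folds were not taken over all genes, so that nothing particular to the members can be read from them. Over 2-fold higher in LK2-ctrl were 12 members, and over 2-fold higher in LC-AI-ctrl were 8. NF1, the RAS GTPase-activating protein, was at 250 ± 17 CPM in LK2-ctrl and 22.1 ± 2.26 CPM in LC-AI-ctrl libraries (SD, n = 3 each). DUSP4 was at 61.5 ± 2.47 CPM in LK2-ctrl and 3.57 ± 0.97 CPM in LC-AI-ctrl libraries. DUSP5 and FOSL1 lay the other way, DUSP5 at 0.943 ± 0.43 CPM in LK2-ctrl and 78.8 ± 6.27 CPM in LC-AI-ctrl, and FOSL1 at 10.1 ± 2.66 CPM in LK2-ctrl and 485 ± 37.0 CPM in LC-AI-ctrl libraries. The median fold between the ctrl lines was 2.94 for the feedback inhibitors, 1.76 for the kinases and 1.70 for the immediate early genes.

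Per kilobase of the GENCODE canonical transcript, MYC was the most abundant member in LK2-ctrl libraries at 86.9 CPM per kilobase, followed by MAP2K1 at 60.2. In LC-AI-ctrl libraries FOSL1 led at 285 CPM per kilobase, followed by MAP2K2 at 83.0, HRAS at 64.6 and JUN at 58.5. EGR2 was the lowest member in both lines, at 0.0438 CPM per kilobase in LK2-ctrl and 0.0331 in LC-AI-ctrl libraries. Between libraries of a group, the median coefficient of variation was highest for the immediate early genes. It was 18.4% in LK2-maspin, 15.7% in LK2-ctrl, 8.43% in LC-AI-maspin and 11.4% in LC-AI-ctrl libraries. For the feedback inhibitors it was 8.18% in LK2-maspin, 9.42% in LK2-ctrl, 5.72% in LC-AI-maspin and 8.92% in LC-AI-ctrl libraries. For the kinases it was 5.43% in LK2-maspin, 7.58% in LK2-ctrl, 4.04% in LC-AI-maspin and 3.91% in LC-AI-ctrl libraries. The immediate early genes include FOS, FOSB, EGR2 and EGR3, whose counts were low in every group. The part of low counts in these medians was not tested, so that their order cannot be read as a trait of the class.

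**Figure D4:**
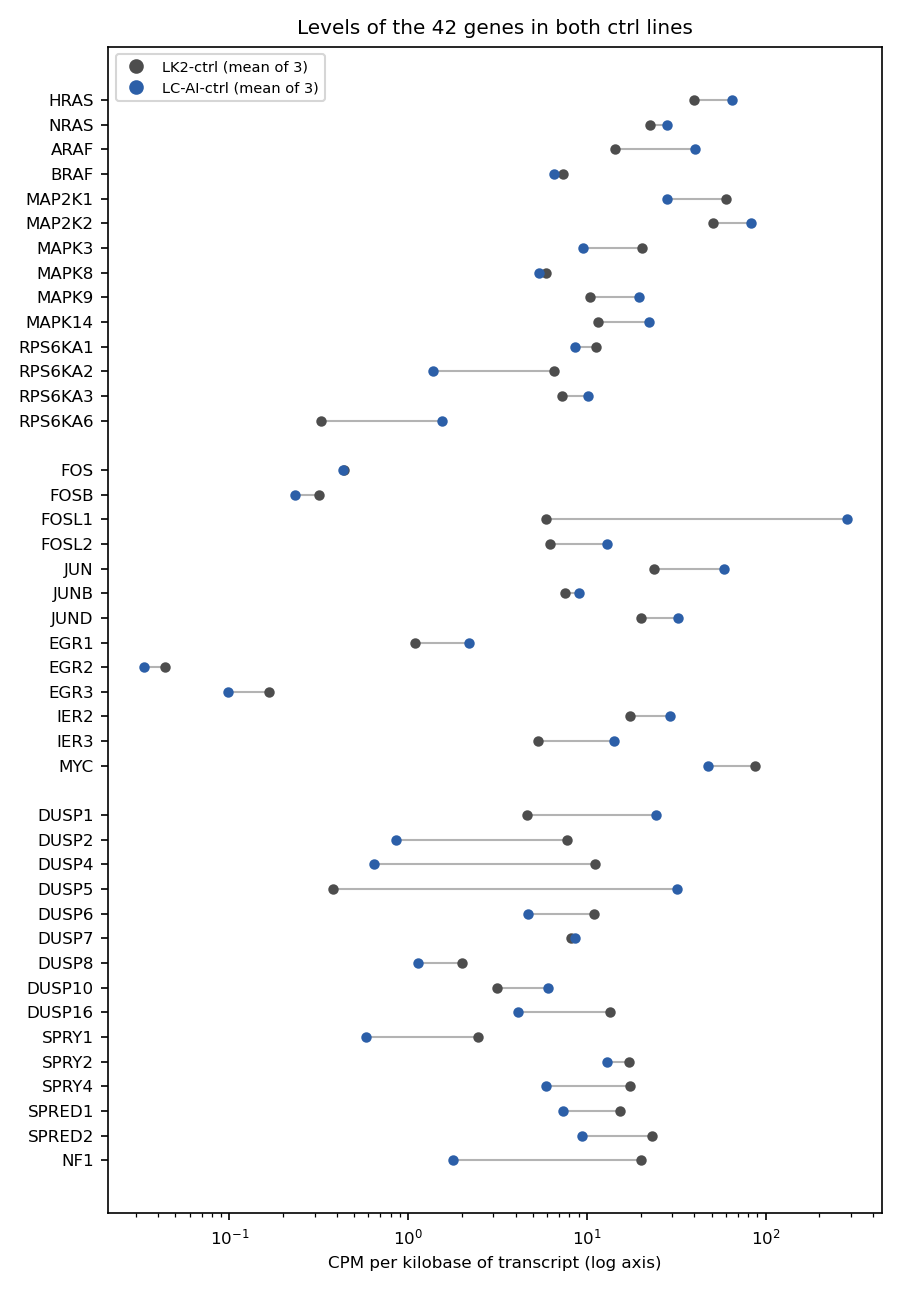
Mean level (n = 3) of each member in LK2-ctrl (dark) and LC-AI-ctrl libraries (blue), in CPM per kilobase of transcript on a log axis, by class. FOSL1 and DUSP5 lie far higher in LC-AI-ctrl, and NF1 and DUSP4 far higher in LK2-ctrl.

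The pathway around the members was read from 146 further genes in 6 lists. In LK-2 cells 0 of 145 tested were called by the quasi-likelihood test, with 7 higher and 7 lower at an unadjusted p under 0.05, while the likelihood ratio test called 1 higher and 1 lower and DESeq2 called 1 lower. In RERF-LC-AI cells 7 of 144 were called higher and 11 lower, beside 4.01% higher and 6.53% lower over all genes tested, so that nothing particular to these genes can be read from the counts. Among RAS adaptors, activators, GAPs and scaffolds, 2 of 38 were higher and 6 lower. Among further MAP kinase tiers and MAPK-activated kinases 0 of 46 were higher and 2 lower, with 5 higher at an unadjusted p under 0.05 and 0 higher by the likelihood ratio test or DESeq2. Among ERK output genes 2 of 14 were higher and 1 lower, against 3 and 3 by the likelihood ratio test and 2 and 4 by DESeq2. At an unadjusted p under 0.05, 3 ERK output genes were higher and 5 lower, and the median log2 fold change of that list was -0.09. Among further immediate early genes 1 of 22 was higher and 2 lower, and among further feedback inhibitors 2 of 12 were higher and 0 lower. In that last list 0 were lower at an unadjusted p under 0.05 and 0 by the likelihood ratio test or DESeq2. Of 12 SRF, ternary complex and AP-1 partner genes, 0 were called, with 3 higher and 2 lower at an unadjusted p under 0.05, 0 by the likelihood ratio test and 1 higher by DESeq2.

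Upstream of MEK, the RAS-like GTPase MRAS was higher, at 0.32 on the log2 scale (adjusted p = 0.00106). PEBP1, which binds RAF and blocks MEK, fell by 0.23 (adjusted p = 5.11e-04), and DAB2IP, a RAS GTPase-activating protein, fell by 0.32 (adjusted p = 1.00e-04). In the same list, the other of the 2 genes called higher also encodes a RAS GTPase-activating protein. The rest of the 6 called lower encode adaptors and scaffolds. RAS GTPase-activating proteins were thus called in both directions. The JNK pathway kinase MAP3K11 fell by 0.26 (adjusted p = 3.52e-04) and RPS6KA4, a nuclear kinase of the MSK family, fell by 0.27 (adjusted p = 2.05e-04).

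Downstream, the ETS factors ETV4 and ETV5, transcribed in response to ERK in many tissues, were higher. ETV4 was at 34.9, 35.5 and 34.2 CPM in LC-AI-maspin and 24.9, 24.4 and 22.9 CPM in LC-AI-ctrl libraries (log2 fold change 0.53, SE 0.061, adjusted p = 3.46e-07). ETV5 averaged 146 ± 5.75 CPM in LC-AI-maspin and 106 ± 6.04 CPM in LC-AI-ctrl libraries (SD, n = 3 each; log2 fold change 0.46, adjusted p = 1.60e-07). CCND1, the G1 cyclin D1, fell by 0.28 (adjusted p = 7.06e-04). SGK1, a serum-induced kinase, was at 50.1, 50.6 and 47.7 CPM in LC-AI-maspin and 71.8, 79.0 and 80.1 CPM in LC-AI-ctrl libraries and fell by 0.64 (SE 0.053, adjusted p = 1.09e-09).

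The receptor inhibitor ERRFI1 was higher, at 0.31 (adjusted p = 2.10e-05). IER5 fell by 0.22 (adjusted p = 0.0140), and its call was lost without LC-AI-maspin replicate 1 or 3 (adjusted p 0.0545 and 0.0684) or LC-AI-ctrl replicate 1 or 3 (0.0616 and 0.0561). The phosphatase subunit gene PPP1R15A was higher at 0.32 (adjusted p = 0.0155), but DESeq2 did not call it (adjusted p = 0.294), without LC-AI-maspin replicate 1 the value was 0.13 (adjusted p = 0.291), and without LC-AI-ctrl replicate 3 the adjusted p was 0.0799. DUSP22 was higher at 0.24 (adjusted p = 0.0291), a call lost without LC-AI-maspin replicate 2 or 3 (adjusted p 0.121 and 0.153) or LC-AI-ctrl replicate 3 (0.219). With all 12 libraries in 1 fit, the RERF-LC-AI calls of 6 of these other pathway genes were lost, those of CCND1 (adjusted p = 0.111), RPS6KA4 (0.123), IER5 (0.0680), PPP1R15A (0.183), ERRFI1 (0.0631) and DUSP22 (0.136).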

How the data were processed

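RNA from stable LK-2 and RERF-LC-AI cells was sequenced on an Illumina NovaSeq instrument, in 12 libraries. Reads were trimmed with Trimmomatic 0.39 and mapped to GRCh38.p13 with BWA 0.7.17, with SAMtools 1.12 for LK-2 and 1.10 for RERF-LC-AI, per the submitters' processing notes. For the tool that counted reads, none of the sources used here gives a name. The authors deposited 1 table per line with raw counts of mapped reads per gene. The authors also deposited signal columns, scaled to library totals or with TMM from edgeR 3.16.5, which were left aside. Of counts from 1 to 9, 23.9 to 26.2% were odd, so that most counts hold both reads of a pair and fragments are fewer than counts. Lines without a symbol, 646 per table with 0.292 to 0.416% of the counts, were left out.

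For each line, maspin was compared with ctrl by edgeR 4.0.16 (R 4.3.3) and its quasi-likelihood F test. Low genes were removed by filterByExpr (at least 10 counts, 15 in total), TMM factors were used, and p was adjusted over all genes tested by Benjamini-Hochberg, with calls at 0.05. The difference between lines was an interaction in 1 fit of 12 libraries. SE is the log2 fold change over the square root of F. CPM values were TMM-scaled within a line. Lengths came from GENCODE 44 and were used for levels only. Alternatives were the likelihood ratio test, DESeq2 1.42.0, RLE, upper-quartile or no factors, testing without a filter or with 10 or more counts in all libraries, a replicate block, all 12 libraries in 1 fit, a stricter adjusted p (0.01), and the omission of 1 library at a time. Figures used Python 3.11.15 and matplotlib 3.10.9. The tests were checked on simulated data.

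The members and lists were chosen with earlier results of these data known. Values per library are given for every member called in a test, and from each further list up to 3 called genes per line with the smallest adjusted p are named. Some genes of the pathway are not reported here.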

Additional observations from a re-analysis of the deposited data

Results flagged for a closer look

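By the interaction test, 2 of the 41 members tested passed, beside 1.76% of all 28123 genes. Of 145 further genes tested, 2 passed with a positive and 2 with a negative difference. The effect, meaning maspin over ctrl libraries, thus differed between the lines for 6 of the genes named. It was more positive in LK-2 than in RERF-LC-AI cells for SGK1 by 1.07 (adjusted p = 1.78e-04), FOSL2 by 0.94 (adjusted p = 0.0410), DAB2IP by 0.47 (adjusted p = 0.0123) and RPS6KA1 by 0.43 (adjusted p = 0.0405) on the log2 scale. It was more negative in LK-2 cells for ETV4 by -0.64 (adjusted p = 1.91e-04) and ETV5 by -0.49 (adjusted p = 0.00332). SGK1, DAB2IP, ETV4 and ETV5 were named because they were called in RERF-LC-AI cells, and 0 of the 145 further genes were called in LK-2 cells. For these genes the calls within each line were therefore fixed by the naming. None of the 6 genes was called in LK-2 cells alone, whereas all were called in RERF-LC-AI cells, by the quasi-likelihood test within each line. For FOSL2 this turned round with all 12 libraries in 1 fit, where it was called in LK-2 (0.73, adjusted p = 0.0396) and not in RERF-LC-AI cells (-0.22, adjusted p = 0.604). The cause was not tested. DAB2IP lost the call without LC-AI-maspin replicate 3 (adjusted p = 0.0523). With the replicate number as a block, DAB2IP was called higher in LK-2 cells (0.16, adjusted p = 0.0476), as was FOSL2.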

How the results depend on the processing

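No named gene changed direction while it was called. Against 0 higher and 1 lower member in LK-2 cells, RLE factors gave 0 lower, all 12 libraries in 1 fit gave 1 higher, a threshold of 0.01 gave 0 lower, and leaving out each library gave 0 to 1 higher and 0 to 1 lower. Against 6 higher and 6 lower in RERF-LC-AI cells, all 12 libraries in 1 fit gave 1 higher and 2 lower, a threshold of 0.01 gave 1 higher and 6 lower, and leaving out each library gave 1 to 9 higher and 5 to 6 lower, the fewest higher without LC-AI-ctrl replicate 3 (1) and replicate 2 (3). The likelihood ratio test gave 7 and 6, DESeq2 4 and 6, upper-quartile factors 9 and 6, and library size only 8 and 6. Of all RERF-LC-AI calls 38.0% were higher with TMM, 48.5% with upper-quartile scaling and 52.2% with library size only, and of all interaction calls 77.1% were positive with TMM and 66.9% with library size only. For the difference between lines, the likelihood ratio test gave 5 members against 2, a threshold of 0.01 gave 0, and leaving out each library gave 0 to 2. The cause of these changes was not tested.

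The replicate number as a block gave 2 higher and 3 lower members in LK-2 cells, 11 higher and 7 lower in RERF-LC-AI cells, and 12 differing between the lines, with FOSL2 called higher in LK-2 cells (0.72, adjusted p = 5.67e-19) and SPRED1 and RPS6KA2 among those differing (adjusted p 0.00121 and 7.86e-07). Libraries with the same number deviated from their group means with correlations, across all genes tested, of 0.294, 0.0368 and 0.313 in LK-2 and 0.115, 0.130 and 0.0462 in RERF-LC-AI cells, so not all were over 0.1, the labels give no shared culture or day, and the number was not taken to pair the libraries. Over genes with a mean log2 CPM over 3 all were over 0.1, at 0.743, 0.113 and 0.750 in LK-2 and 0.364, 0.3903 and 0.202 in RERF-LC-AI cells, although the second LK2-ctrl library had a correlation of 0.183 with the first LK2-maspin library and of 0.113 with the second. Across numbers in LK-2 cells, ctrl replicate 1 with maspin replicate 3 was at -0.734, and ctrl replicate 3 with maspin replicate 1 at -0.714. The tests without a block leave this shared pattern aside.

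Over all genes, counts in LK-2 differed from the 98 higher and 42 lower of the quasi-likelihood test by over 1.5 times with the likelihood ratio test (220 and 94), DESeq2 (196 and 84), all 12 libraries in 1 fit (184 and 67) and the block (693 and 497), and without LK2-maspin replicate 2 (41 and 11) or 3 (61 and 21) or LK2-ctrl replicate 2 (37 and 13). In RERF-LC-AI cells they did so with all 12 libraries in 1 fit (411 and 752, against 1010 and 1645) and the block (1598 and 2483), and without LC-AI-ctrl replicate 3 (628 higher) or LC-AI-maspin replicate 3 (1069 lower). For the difference between lines, 381 genes were positive and 113 negative, against 612 and 272 by the likelihood ratio test, 817 and 164 by DESeq2 and 1443 and 830 with the block. Leaving out 1 library gave 215 (LC-AI-maspin replicate 3) to 609 positive (LK2-ctrl replicate 3) and 37 (LK2-maspin replicate 2) to 145 negative (LK2-ctrl replicate 3), with counts nearly as low without LC-AI-ctrl replicate 3 (235 positive and 47 negative) and, for negative, without LC-AI-maspin replicate 2 (46). At under 1 CPM, as for FOS and EGR2, depth limits what can be detected.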
